A study of Mus musculus with 6 samples.

Results

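The subject is the set of TAF4b binding sites that lie inside introns, away from gene starts, in the germ cells of the fetal mouse testis. Members were the peaks of TAF4b replicate 1 that the authors annotated as intronic and whose centre lay over 1000 bp from the nearest transcription start site in the annotation they used. The rule took 494 of the 7861 peaks in that list (6.28%), which are 494 of the 75330 intervals in the 4 lists analysed.

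TAF4b is a relative of TAF4 that is enriched in germ cells and takes part in TFIID, the complex that binds core promoters and helps RNA polymerase II to start transcription. Trimethylation of lysine 4 of histone H3 (H3K4me3) marks nucleosomes at active start sites, and smaller amounts are found at some enhancers and unannotated promoters. Introns can hold alternative promoters, start sites of noncoding RNAs, enhancers and copies of transposable elements, so an intronic binding site is not in itself a promoter of its host gene. Prospermatogonia are the fetal male germ cells that stop dividing before birth and later give rise to spermatogonial stem cells.

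The assay was CUT&RUN, in which an antibody directs a nuclease to cut and release the DNA near its target. Cells came from male embryos at E16.5, in days of embryonic life, that were Taf4b-wildtype, with strain C57BL/6 given for every sample, and carried an Oct4-EGFP transgene (B6;129S4-Pou5f1tm2Jae/J) by which live GFP-positive cells were sorted. Antibodies to TAF4b and to H3K4me3 and an IgG control were each used on 2 samples, and the 2 IgG samples were not analysed here. No Taf4b-deficient sample entered any comparison, and the sources do not say whether replicates came from separate embryos, so the spread between them may be technical.

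The 4 lists differed greatly in length, with 7861 and 848 intervals for TAF4b replicates 1 and 2 and 64891 and 1730 for H3K4me3 replicates 1 and 2. Scores moved in fixed steps, of 0.496 and 4.05 in the TAF4b lists and of 1.49 and 5.05 in the H3K4me3 lists, so the step was 8.16 times as large in TAF4b replicate 2 as in replicate 1. If each step stands for 1 sequenced fragment scaled to a common total, replicate 2 was the shallower by that factor, but total read numbers are unknown. Of 12 germ cell markers, 7 had an H3K4me3 promoter region in replicate 1 and 6 a TAF4b promoter peak, where 44.0% and 22.7% of all protein-coding genes had one. An H3K4me3 promoter region was also present at 6 of 8 Sertoli markers, 4 of 8 Leydig and interstitial markers and 1 of 6 endothelial and blood markers. Of these 22 markers 1, in the interstitial list, had a TAF4b promoter peak, and the part of other cell types in the results was not tested.

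The sequences under 8 of the intronic peaks are shown because they span the kinds of site in the set. The first 3 lie at start sites that a later annotation places inside the host gene, Peg3 lies in a broad H3K4me3 region of an imprinted gene, and the last 4 form 2 pairs of related sequences from different chromosomes or distant sites. Each is 143 bases of GRCm39, and capitals mark matches, on either strand, to any of the 12 short promoter motifs searched, among them the CCAAT box (CCAAT), the GC box (GGGCGG), the E-box (CACGTG) and the YY1 motif (AAGATGG). Positions are Shoc1 chr4:59117841-59117983, Sin3a chr9:56980805-56980947, Etv5 chr16:22257241-22257383, Peg3 chr7:6731803-6731945, Lrrc4b chr7:44082947-44083089, Dcps chr9:35058736-35058878 and Gm48321 chr14:4535042-4535184 on the plus strand, and Ryr1 chr7:28763081-28763223 on the minus strand, so that it reads in the direction of its Lrrc4b relative.
Shoc1: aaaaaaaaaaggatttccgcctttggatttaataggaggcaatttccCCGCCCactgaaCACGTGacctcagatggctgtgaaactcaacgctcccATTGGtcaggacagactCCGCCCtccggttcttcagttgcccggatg
Sin3a: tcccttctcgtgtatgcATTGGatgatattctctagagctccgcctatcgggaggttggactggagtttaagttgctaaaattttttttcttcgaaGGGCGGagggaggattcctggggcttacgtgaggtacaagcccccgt
Etv5: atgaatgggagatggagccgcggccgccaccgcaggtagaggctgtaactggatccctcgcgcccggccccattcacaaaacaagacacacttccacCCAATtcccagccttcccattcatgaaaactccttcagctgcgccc
Peg3: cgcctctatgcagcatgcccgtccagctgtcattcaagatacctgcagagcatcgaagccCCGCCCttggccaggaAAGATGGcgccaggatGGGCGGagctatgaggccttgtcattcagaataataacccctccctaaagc
Lrrc4b: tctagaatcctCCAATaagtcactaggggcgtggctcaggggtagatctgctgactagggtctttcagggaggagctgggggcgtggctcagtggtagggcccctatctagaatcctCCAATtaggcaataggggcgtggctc
Ryr1: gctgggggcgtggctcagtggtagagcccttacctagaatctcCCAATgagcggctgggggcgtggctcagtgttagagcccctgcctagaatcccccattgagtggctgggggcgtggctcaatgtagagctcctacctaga
Dcps: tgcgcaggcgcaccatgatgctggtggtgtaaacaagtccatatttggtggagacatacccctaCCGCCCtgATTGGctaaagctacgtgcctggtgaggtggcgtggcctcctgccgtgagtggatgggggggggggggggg
Gm48321: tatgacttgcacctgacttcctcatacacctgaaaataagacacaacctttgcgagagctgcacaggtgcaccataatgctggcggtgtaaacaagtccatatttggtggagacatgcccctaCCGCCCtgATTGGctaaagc

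The Shoc1 peak held 1 CCAAT box, 1 E-box and 2 GC boxes. The Sin3a peak held 1 CCAAT box and 1 GC box, the Etv5 peak 1 CCAAT box, and the Peg3 peak 2 GC boxes and 1 YY1 motif. The Lrrc4b and Ryr1 sequences repeat a unit containing ggggcgtggctca and aligned at 76.9% identity over 121 bases. The Dcps and Gm48321 sequences aligned at 94.05% identity over 84 bases, and each carried 1 GC box and 1 CCAAT box in the shared stretch. A match is a description of the letters and does not show that a factor binds there.

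Peak scores of the 494 intronic sites ranged from 6.95 to 43.2 with a median of 10.9 (interquartile range 8.44 to 14.4). Promoter peaks of the same library had a median of 16.9 (interquartile range 11.9 to 24.3) and reached 266.5, so the intronic sites lay in the lower part of the library's range. The other classes away from promoters lay there too, with medians of 10.4 for distal intergenic peaks, for distal exonic and transcript-end peaks and for intronic peaks within 1000 bp. The scores are the authors' own and are used only to rank and describe peaks within a list. Distances to the nearest start site ran from 1008 to 649887 bp with a median of 9571 bp, the farthest being in Dcc, which encodes a netrin receptor. Just outside the limit lay intronic peaks at 984 bp in Dnajc22 (score 8.44), 968 bp in Sertad3 (25.8) and 960 bp in Pcgf5 (7.94), and just inside it were peaks at 1008 bp in Etv5 (20.3), 1008 bp in Gm48749 (7.94) and 1013 bp in Topors (9.93).

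**Figure D1:**
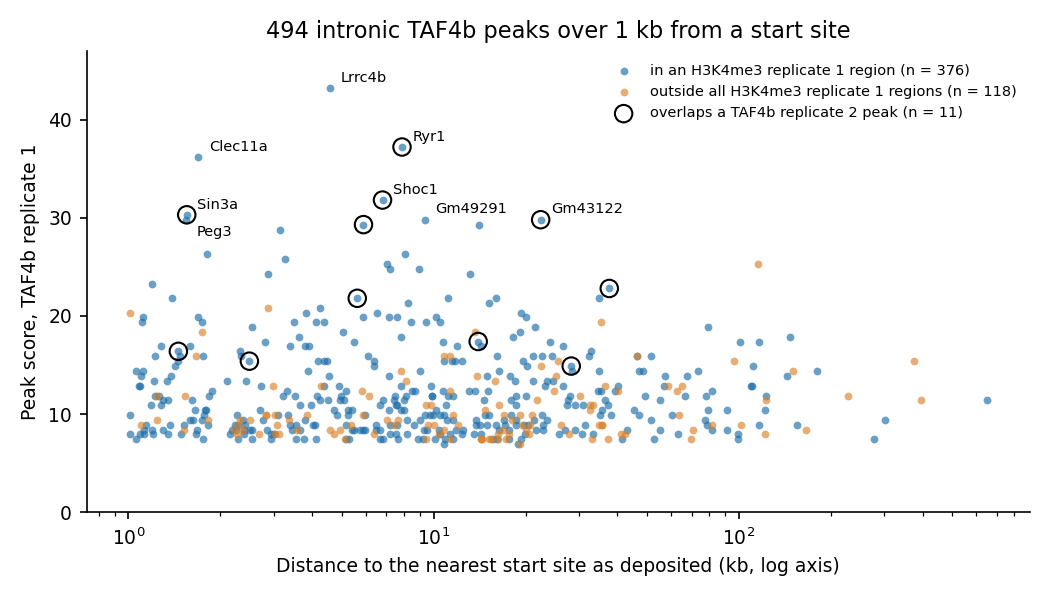
Each point is 1 intronic TAF4b peak, with the deposited distance to the nearest start site on a log axis (kb) and its replicate 1 score on the other; colour gives overlap with H3K4me3 replicate 1 and rings mark overlap with TAF4b replicate 2. Scores lie between 6.95 and 43.2, and the 11 ringed peaks all lie in H3K4me3 regions.

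In all, 376 of the 494 intronic peaks overlapped an H3K4me3 replicate 1 region by at least 1 bp, a share of 76.1% (95% Wilson interval 72.2 to 79.7). Over all TAF4b replicate 1 peaks the share was 84.1%. Windows of the same length moved 2000 bp to either side overlapped H3K4me3 in 61 of 988 cases (6.17%, 4.84 to 7.85), and windows moved 10000 bp in 56 of 988 (5.67%, 4.39 to 7.29). H3K4me3 overlap was thus far more frequent at the sites than at either distance from them. With the shorter H3K4me3 replicate 2 list in place of replicate 1, only 10 sites (2.02%) overlapped. Intervals on shares cover counting error only, and peaks of 1 library are not replicates, so no p-value is given for them.

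The H3K4me3 share minus that of promoter peaks was -10.2 percentage points (86.3% of 5756), with a 95% Newcombe interval of the difference from -14.2 to -6.51 points. It was also below that of intronic peaks within 1000 bp of a start site, of which 223 of 253 (88.1%) overlapped. The share in intergenic peaks over 1000 bp from a start site was 74.2% of 962, and the difference of 1.89 points had an interval from -2.87 to 6.45 that includes 0. The share in exonic and transcript-end peaks at the same distance was 81.2% of 192, a difference of -5.14 points with an interval from -11.4 to 1.93.

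**Figure D2:**
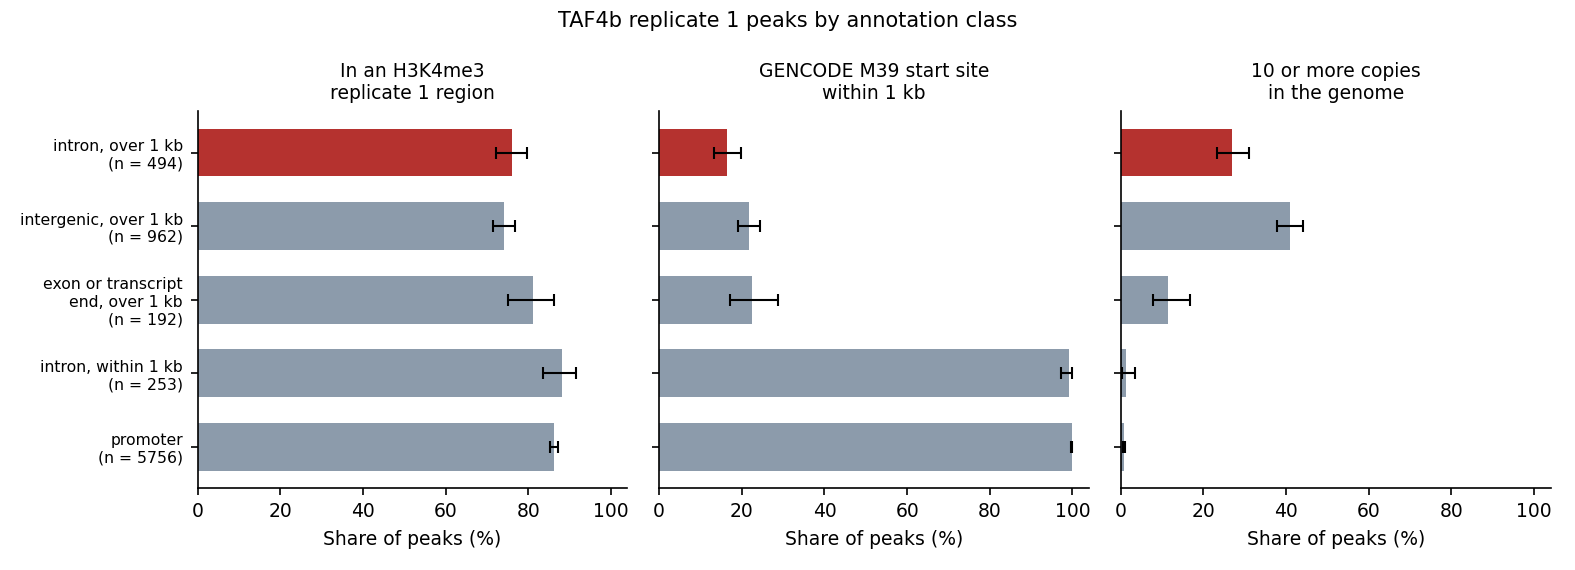
Bars give the share of TAF4b replicate 1 peaks (%) in each annotation class that lie in an H3K4me3 replicate 1 region, have a GENCODE M39 start site within 1 kb, or have 10 or more copies in the genome; error bars are 95% Wilson intervals. The intronic peaks (first bar, n = 494) reach 76.1%, 16.4% and 26.9%.

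The overlap rose with the TAF4b score. It was 68.0% of 228 intronic peaks scoring under 10, 79.5% of 156 from 10 to 15, 86.7% of 75 from 15 to 20 and 91.4% of 35 at 20 or over. Promoter peaks in the lowest of these score ranges overlapped in 81.6% of 857 cases, and those at 20 or over in 89.5% of 2196, so the intronic and promoter shares differed beyond their intervals only under a score of 10. The median score was 11.4 for intronic peaks inside H3K4me3 regions and 9.43 for the 118 outside. By distance, the share was 87.0% of the 69 peaks between 1000 and 2000 bp of a start site and 69.1% of the 55 beyond 50000 bp, with intervals of 77.0 to 92.98 and 56.0 to 79.7 that overlap.

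**Figure D3:**
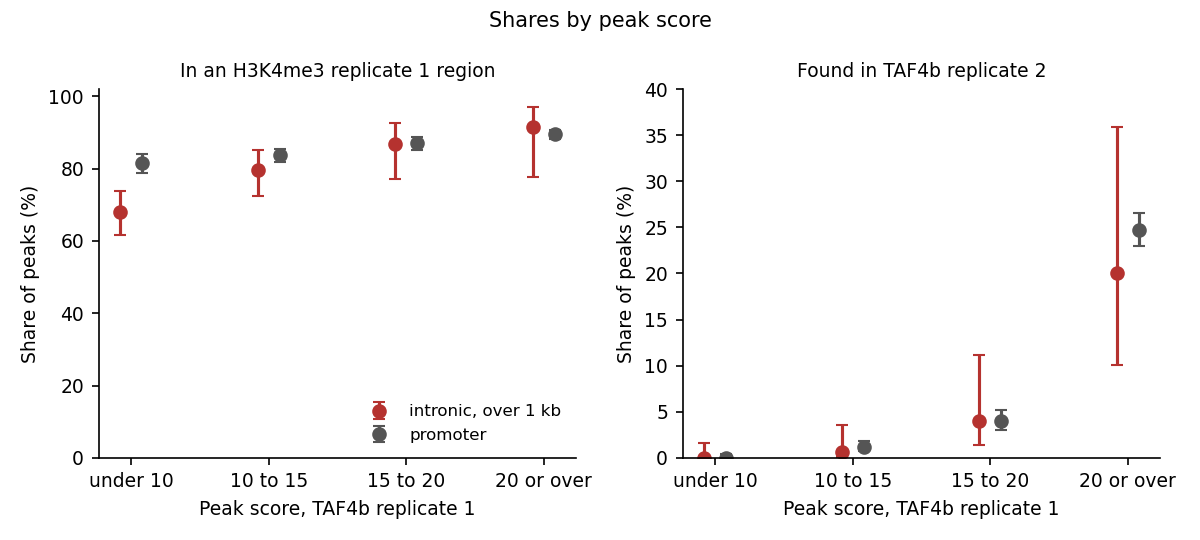
Points give the share of intronic TAF4b peaks over 1 kb from a start site and of promoter peaks (%) that lie in an H3K4me3 replicate 1 region or overlap a TAF4b replicate 2 peak, by replicate 1 score; bars are 95% Wilson intervals. Both shares are higher at higher scores, reaching 91.4% and 20% of the intronic peaks at a score of 20 or over.

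The 376 sites lay in 375 separate H3K4me3 regions. Of these regions, 325 were themselves intronic and over 1000 bp from a start site, 21 were exonic, 12 intronic and near a start site, 11 promoter regions and 6 transcript ends. Class and distance are the authors' and go by the centre of each region, so a wide intronic region can still cover a start site. The Peg3 region, classed as intronic and 3922 bp wide, covered the start site 1544 bp from its TAF4b site. How many regions reach a start site was not counted. Seen from the other side, the 325 regions were 2.66% (2.39 to 2.96) of the 12231 intronic H3K4me3 regions over 1000 bp from a start site. The regions with a TAF4b site had a median score of 59.6 and a median width of 872 bp, and those without one a median score of 38.8 and a median width of 655 bp. Of the 1224 lowest-scoring regions 8 held a TAF4b site, against 71 of the 1223 highest-scoring (5.81%). Member centres lay a median of 155 bp from the centre of their region.

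Early introns held most sites. Intron 1 held 180 of the 494 sites (36.4%, 32.3 to 40.8), intron 2 held 94 (19.0%), introns 3 to 5 held 109 (22.1%) and later introns 111 (22.5%). For 42 of the 494 (8.50%) the host transcript has only 1 intron, so these were in intron 1 by necessity. The share of intronic sequence that lies in early introns is not given, so a preference for them was not tested. The H3K4me3 regions of the same class had 37.6% of 12231 in intron 1 in replicate 1, within the interval of the TAF4b sites, and 46.8% of 77 (36.0 to 57.8) in replicate 2. Among hosts annotated as protein-coding 120 of 381 sites (31.5%) were in intron 1, against 53 of 97 (54.6%) in long noncoding RNA hosts, whose transcripts had a median of 3 introns against 8. The highest intron numbers were 137 of 187 in Efcab3 (score 7.94) and 63 of 105 in Ryr1, the calcium release channel of skeletal muscle. For the 481 sites placed in the same intron in GENCODE M39, introns had a median length of 19774 bp, and the median distance to the nearer exon was 4233 bp, with 118 sites within 1000 bp of an exon.

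Hosts were many and mostly hit once. The 485 sites whose host transcript is in GENCODE M39 fell in 460 named genes, 439 of them with 1 site, 18 with 2 and 3 with 3 or more. Nuggc, a nuclear GTPase gene, held 4 sites in intron 12 of 18, with scores of 18.4, 13.9, 12.4 and 11.4, of which only the first lay in an H3K4me3 region. Those 4 sequences fell into 1 group by alignment to each other, so they are not 4 separate kinds of site. Tshz2, which encodes a teashirt zinc finger protein, held 3 sites scoring 17.4, 16.4 and 10.9, all in H3K4me3 regions. In GENCODE M39 the sites scoring 16.4 and 10.9 lay 10 and 94 bp from start sites of the noncoding RNA genes Gm75240 and Gm75719. Hs6st3, a heparan sulfate sulfotransferase gene, held 3 sites scoring 13.9, 11.9 and 9.93, of which only the last lay in an H3K4me3 region. Its sites scoring 11.9 and 9.93 lay 2 and 76 bp from GENCODE M39 start sites of the noncoding RNA genes Gm63339 and Gm62366.

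A promoter peak in the host gene was no more frequent than in other genes. Of the 356 protein-coding host genes, 80 (22.5%, 18.4 to 27.1) carried a replicate 1 peak of TAF4b at their promoter too. The share over all 21751 protein-coding genes in the annotation was 22.7%. An H3K4me3 promoter region was present at 204 hosts (57.3%, 52.1 to 62.3), against 44.0% of all protein-coding genes, a set that includes genes with no or short introns. Host genes of distal intronic TAF4b peaks were 1.64% of all protein-coding genes.

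Of 152 annotated genes in 5 lists of germ cell, testis somatic, chromatin, transcription machinery and signalling genes, 6 were hosts. Etv5, an ETS-family factor needed for self-renewal of spermatogonial stem cells, had a site of score 20.3, outside H3K4me3. Kit, the receptor for stem cell factor in germ cells, had a site of score 7.94 in intron 1 of 20, -14305 bp from the nearest start site and inside an H3K4me3 region of score 46.2. The growth factor receptor genes Igf1r (20.3), Insr (14.4) and Fgfr2 (9.93) each held a site in intron 2, and only the Fgfr2 site lay outside H3K4me3. In GENCODE M39 the Fgfr2 intron is 2908816 bp long, with the nearer exon 650144 bp from the site, and the site's sequence had 23 genomic copies, so this host assignment rests on a very long transcript. Nr2f2, a nuclear receptor of interstitial cells, held a site of score 15.9 inside an H3K4me3 region. None of the 31 TFIID and polymerase II genes and none of the 42 chromatin regulator genes was a host, where 1.64% of all protein-coding genes were, a share at which 0 in lists of this length is no result.

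The strongest sites inside H3K4me3 regions were in genes of varied function. In Lrrc4b, a synaptic adhesion gene, the site scored 43.2 in intron 1 of 2 and lay in a region of score 71.5. The Ryr1 site scored 37.2 in TAF4b replicate 1 and 76.9 in replicate 2, in an H3K4me3 replicate 1 region of score 85. In Clec11a, which encodes a secreted growth factor, the site scored 36.2, with H3K4me3 regions of 181.9 in replicate 1 and 227.4 in replicate 2 and no TAF4b replicate 2 peak. This site and the Peg3 site were the only 2 of these 8 that overlapped H3K4me3 in both replicates.

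The Shoc1 site scored 31.8 in TAF4b replicate 1 and 60.7 in replicate 2, in an H3K4me3 region of score 56.6. Shoc1 is needed for crossovers in meiosis. The Sin3a site scored 30.3 and 64.8 in the 2 TAF4b replicates, in an H3K4me3 region of score 518.7 that was 6423 bp wide. Sin3a encodes the scaffold of a histone deacetylase corepressor. Peg3, an imprinted zinc finger gene expressed from the paternal allele, had a site of score 29.8 at 1544 bp from its start, in H3K4me3 regions of 429.3 and 161.7 in replicates 1 and 2. Sites in the noncoding RNA genes Gm49291 and Gm43122 also scored 29.8, and only the Gm43122 site had a replicate 2 peak (76.9).

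Sites outside H3K4me3 regions scored lower. The 8 highest were in 2210408I21Rik (25.3), Dcps (20.8), Etv5 (20.3), Kazn (19.4), Sertad2 (18.4), Elovl6 (18.4), D130079A08Rik (15.9) and Fam227b (15.9), the last 2 being tied with Lhfpl3 and Gm53025. Dcps encodes a scavenger enzyme of messenger RNA caps and Elovl6 a fatty acid elongase. None of these 8 had a peak in TAF4b replicate 2. The sequence of the 2210408I21Rik site had 392 copies in the genome, 81 of them at 95% identity or more.

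A gene start in a newer annotation lay close to some sites. GENCODE M39 placed a start site within 1000 bp of 81 of the 494 sites (16.4%, 13.4 to 19.9), and within 250 bp of 50 (10.1%), against 83.0% of all TAF4b replicate 1 peaks within 1000 bp. Most peaks of that list are promoter peaks, and no share for the windows beside the sites is given. By deposited distance, the share was 33.3% of the 69 sites between 1000 and 2000 bp and 9.09% of the 55 beyond 50000 bp. For the nearest sites a small shift between annotations is enough to cross the limit. For intergenic peaks over 1000 bp from a start site in the authors' annotation the share was 21.6% of 962, and the intronic share minus the intergenic was -5.22 points (-9.27 to -0.914). Of the 81 start sites, 70 belonged to long noncoding RNA genes and 11 to protein-coding genes, and 53 belonged to a gene other than the host. The label of a site far from start sites thus depends on the annotation, and 413 sites had none within 1000 bp in either annotation.

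The Shoc1 site lay 8 bp upstream of a GENCODE start site of Shoc1 itself, although its deposited distance was 6799 bp. The Etv5 site lay 83 bp downstream of a start site of Etv5. The Sin3a site lay 150 bp upstream of the noncoding RNA gene Gm57026, and the Gm49291 site 18 bp upstream of Gm36183. Protein-coding start sites also lay 88 bp from the site in Jak2, a cytokine receptor kinase (score 11.9), 491 bp from the site in Ythdc2, an RNA helicase needed for meiosis (11.9), and 482 bp from the Nr2f2 site. Inside the group of 81 the median score was 11.9, against 10.4 in the other 413.

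Base composition of the sites differed from that of their surroundings and of promoters, and was close to that of distal intergenic peaks. Their median GC content was 55.2%, against 44.8% in the windows 2000 bp to either side, 64.3% in promoter peaks and 55.2% in intergenic peaks over 1000 bp from a start site. The median ratio of observed to expected CpG was 0.424, against 0.173 beside, 0.84 at promoters and 0.425 in the intergenic peaks. GC content over 50% together with a CpG ratio over 0.6 was found at 123 of 494 sites (24.9%, 21.3 to 28.9), 81.7% of promoter peaks, 2.94% of the windows beside and 24.2% of the intergenic peaks. Sites inside H3K4me3 regions met both criteria in 28.2% of cases and those outside in 14.4%.

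Of the 12 motifs, the CCAAT box bound by NF-Y was the most frequent in the sites. It is also the shortest of the 12, and shorter motifs are met more often in any sequence, so the ranking of motifs is not a result. It was found in 227 of 494 (46.0%, 41.6 to 50.4), against 19.1% of the 988 windows beside and 37.9% of promoter peaks. Distal intergenic peaks held it more often, in 532 of 962 (55.3%), and the intronic share minus theirs was -9.35 points (-14.7 to -3.93). The GC box, which SP-family and KLF-family factors recognise, was found in 107 (21.7%, 18.2 to 25.5), against 2.43% of the windows beside and 56.9% of promoter peaks, and was at 32.8% in the 116 sites that fell in the higher-scoring 50% of the library. The E-box was found in 46 sites (9.31%) and 1.21% of windows beside, and the octamer of POU factors (ATGCAAAT) in 19 (3.85%) and 0.506%. Of those 19 octamer sites 13 had 10 or more genomic copies, and at under 10 copies the share was 1.66% (0.764 to 3.58), against 0.557% of windows beside. Distal intergenic peaks held the GC box in 19.6% and the octamer in 5.20%, with intervals of the difference that include 0. They held the E-box in 6.45%, and the intronic share minus theirs was 2.87 points (0.0214 to 6.07). Promoter peaks held the E-box in 7.2% and the octamer in 1.18%. The ETS motif (CCGGAAG) was found in 2.63% of sites, 0.71% of windows beside and 13.6% of promoter peaks. The TATA box (TATAAA) was found in 1.21% of sites, 9.82% of windows beside and 1.74% of promoter peaks. Its share in sites minus that in promoter peaks had an interval that includes 0. For the TATA box the intronic share minus the 2.91% of distal intergenic peaks was -1.7 points (-3.12 to -0.0293).

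Base composition differs between these sets as given above, and its part in the motif shares was not tested. For the other motifs, shares are given in sites, windows beside and promoter peaks in turn. They were 2.63%, 0% and 4.45% for the CRE (TGACGTCA) and 1.42%, 0% and 2.85% for NRF1 (GCGCATGCG). YY1 had 4.25%, 3.64% and 2.87%, and the CTCF core (AGGGGGC) 4.86%, 1.42% and 11.8%. The DMRT motif (ACATTGT) had 1.62%, 1.2% and 0.57%, and the GFY core (CTACAATTC) 0.202%, 0.10% and 0.89%. The interval of the difference from windows beside includes 0 for YY1, DMRT and GFY. Against promoter peaks it excludes 0 for the CTCF core and DMRT only. None of the 12 motifs contains another, although matches can overlap.

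**Figure D4:**
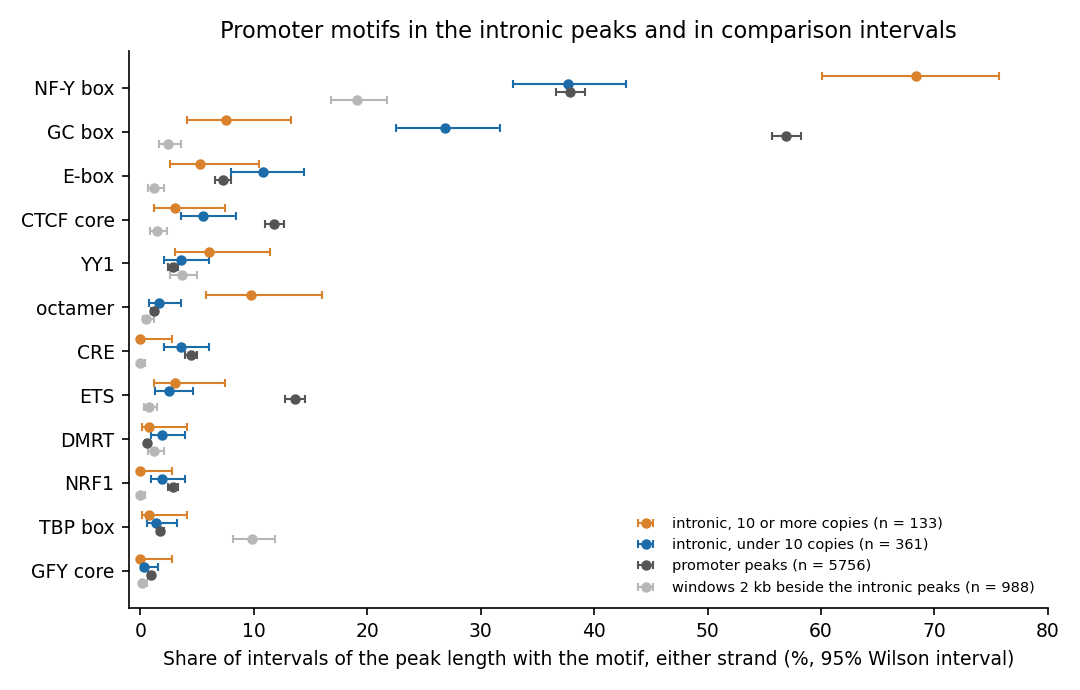
Points give the share (%) of 143-base intervals that hold each motif on either strand, with 95% Wilson intervals, for intronic TAF4b peaks at 10 or more and at under 10 genomic copies, promoter peaks and windows 2 kb beside the intronic peaks. The CCAAT box (here NF-Y box) is found in 68.4% of the many-copy sites and 37.7% of the others, and the GC box in 7.52% and 26.9%.

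Many sites lay in sequence that occurs often in the genome. At least 10 copies, counted as alignments of at least 80% identity over at least 80% of the peak, were found for 133 of 494 sites (26.9%, 23.2 to 31.0), against 7.70% of all TAF4b replicate 1 peaks. The share was 0.782% in promoter peaks, 9.21% in the windows beside the sites and 40.9% in distal intergenic peaks. The count was 1 or fewer for 318 sites and at least 100 for 98. For 8 of the 318 no alignment was kept, not even to the site itself, so their copies were not counted and they stand among the sites at under 10. The highest count, 37324, was at a site in Dnajc25 of score 8.44. Of the 494 sites, 92 had another copy at 95% identity or more, and whether reads could be assigned to 1 copy was not tested.

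The 133 many-copy sites resembled the rest in score and differed in letters. Their median score was 10.9, against 10.4 for the 361 others. H3K4me3 regions overlapped 69.2% of them and 78.7% of the others, a difference of -9.5 points (-18.7 to -0.984). The CCAAT box was found in 68.4% and 37.7%, 30.8 points apart (20.99 to 39.5), and the longer CCAATCA in 48.9% and 11.1%, against 1.21% of windows beside. The GC box was found in 7.52% and 26.9%, a difference of -19.4 points (-25.2 to -12.2). The CCAAT share of the sites at under 10 copies was within the interval of that at promoter peaks and above the 19.3% of windows beside at under 10 copies. These groups were formed after values had been seen. The intervals count each site as independent, although many of the sites share a sequence, as given below, so they are too narrow.

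Sites were also related to each other. Alignments of at least 75% identity over at least 72 bases joined 140 of the 494 sites into 21 groups of 2 to 19, and 7 groups of 10 or more held 99 sites. Members of a group share a sequence and are not independent sites. The group of 19, with sites in Dpyd and Pcdh15, had a median of 5799 genomic copies and the CCAAT box in 17. The group of 13, with sites in Coa8 and Sugct, held the CCAAT box in all 13 and the octamer in 10, at a median GC content of 42.0%. The group of 15 held Dcps and Gm48321, with the CCAAT box in 13, and that of 12 held Lrrc4b and Ryr1, with the CCAAT box in 4. H3K4me3 regions overlapped between 61.5% and 85.7% of the sites in each of the 7 large groups.

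**Figure D5:**
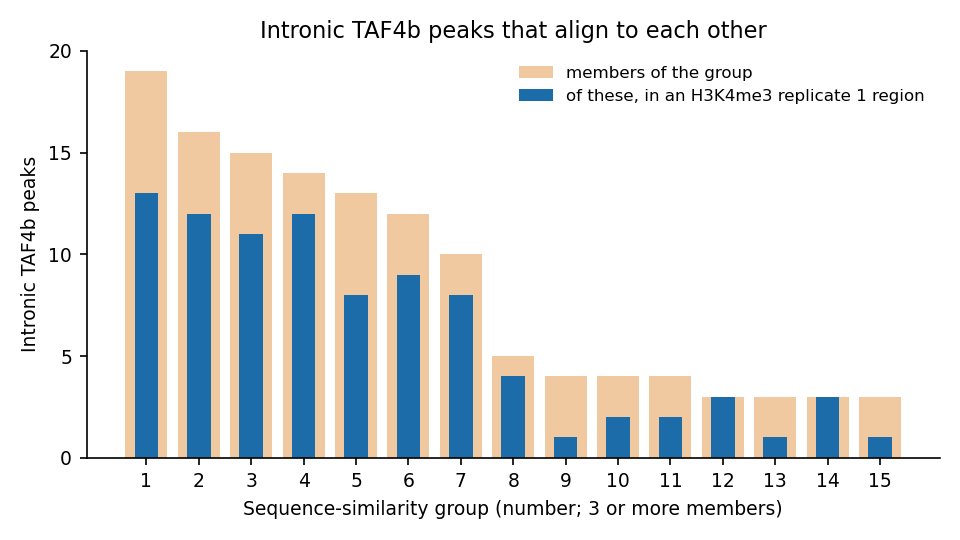
Wide bars give the number of intronic TAF4b peaks in each sequence-similarity group of 3 or more, and narrow bars the number of these in an H3K4me3 replicate 1 region. The largest group holds 19 peaks, 13 of them in H3K4me3 regions.

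Few sites were found again in the shorter replicate 2 lists. A TAF4b replicate 2 peak overlapped 11 of the 494 (2.23%, 1.25 to 3.94), against 8.37% of all TAF4b replicate 1 peaks and 10.6% of promoter peaks. The share was 2.60% in distal intergenic peaks and in distal exonic and transcript-end peaks and 2.37% in intronic peaks within 1000 bp, each with an interval of the difference that includes 0. Within equal score ranges the intronic and promoter shares had overlapping intervals, with 7 of 35 (20%, 10.04 to 35.9) and 24.7% at a score of 20 or over, and 3 of 75 and 3.95% from 15 to 20. An H3K4me3 replicate 2 region overlapped 10 sites (2.02%), against 6.92% of all TAF4b replicate 1 peaks.

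The 11 repeated sites all lay in H3K4me3 replicate 1 regions. The highest replicate 2 score, 85, was in intron 5 of 24 of Nfkb1, the gene of an NF-kappaB subunit, where replicate 1 scored 29.3. Next came Ryr1 and Gm43122 at 76.9, Gm14488 at 72.9 (16.4 in replicate 1), Sin3a at 64.8, Shoc1 and Sh3gl2 at 60.7 and Gm48321 at 52.6 (14.9 in replicate 1). Sh3gl2 encodes endophilin A1, a membrane-bending protein of endocytosis, and its site scored 22.8 in replicate 1. Counts of genomic copies were 1781 for Ryr1, 555 for Gm48321, 33 for Sh3gl2 and 1 for Nfkb1, Gm43122, Gm14488, Sin3a and Shoc1.

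Replicate 2 itself had 25 intronic peaks over 1000 bp from a start site, 2.95% (2.00 to 4.32) of its 848 peaks. Of these, 12 overlapped a replicate 1 peak of any class, 20 (80%, 60.9 to 91.1) an H3K4me3 replicate 1 region and 8 were in intron 1. Of its 748 promoter peaks 81.3% overlapped a replicate 1 peak and 90.8% an H3K4me3 replicate 1 region. At least 10 copies were found for 7 of the 25. The CCAAT box was found in 18 of the 25, but these peaks are 189 bases long against 143 in replicate 1, so the motif shares of the replicates are not comparable.

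Distal intronic intervals were a smaller share of the TAF4b list than of the H3K4me3 list in each replicate. The shares were 6.28% and 2.95% for TAF4b replicates 1 and 2 (mean 4.62% ± 2.36 SD, n = 2) and 18.8% and 4.45% for H3K4me3 (11.7% ± 10.2 SD, n = 2). The difference of -7.03 points had an exact two-sided permutation p of 0.667, and with 2 libraries against 2 the smallest possible p is 0.3333. Between same-numbered libraries it was -12.6 and -1.5 points. Without H3K4me3 replicate 1, which leaves the mean of both TAF4b libraries against H3K4me3 replicate 2 alone, it was 0.165 points. The interval types also differed, with TAF4b peaks of fixed width and H3K4me3 regions of 500 to 6768 bp.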

How the data were processed

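The data are 2 CUT&RUN libraries each for TAF4b and H3K4me3, with 1 list of called intervals per library. Per the submitters' processing notes, bcl2fastq 2.20, Trim Galore 0.5.0, FastQC 0.11.5, Bowtie2 2.3.0, SAMtools 1.9 and HOMER 4.10 were used with build GRCm39, and per the file headers the H3K4me3 regions were annotated with Ensembl release 103. Peak-calling and multi-mapping settings are not given in the sources used here. The score of each interval and, in the TAF4b lists, a focus ratio given as a fraction are the authors' deposited values; the normalization of the score is not stated, and depth is unknown. Of the 489 sites whose nearest transcript is in GENCODE M39, 385 had the deposited distance within 1 bp, which was used as the check of the build.

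Members were found by rule and joined to the other lists by an overlap of at least 1 bp. Host transcripts were looked up in GENCODE M39 (485 of 494 matched; 4 of the rest, Ryr1 among them, were named from the only protein-coding gene spanning them). Sequences were read from the GRCm39 assembly. Copies were counted with BLAST 2.17.0 (word size 24, at most 5000 alignments per chromosome). Shares carry 95% Wilson intervals and differences 95% Newcombe intervals. The only tests were an exact permutation over libraries and, as its paired alternative, an exact sign-flip over same-numbered libraries. Python 3.11.15, pandas 2.3.3, pysam 0.24.0, statsmodels 0.14.6, networkx 3.6.1 and matplotlib 3.10.9 were used, and the scripts were tested on simulated data.

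Named sites were the 8 highest-scoring inside and the 8 outside H3K4me3, the 8 with the highest replicate 2 score among repeated sites, hosts with 3 or more sites, and hosts in the gene lists; other names were chosen after their values were seen. The members and lists were chosen with earlier results of these data known. The alternatives tried were other distance limits, overlap rules, the higher-scoring 50% of each list, libraries left out, annotation windows and copy limits.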

Additional observations from a re-analysis of the deposited data

How the results depend on the processing

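The difference between antibodies in the share of distal intronic intervals turned to 0.165 points without H3K4me3 replicate 1 and ran from -14.2 to 0.165 over the 4 libraries left out in turn; with the replicate block, pairing same-numbered libraries, it was -7.03 points (exact sign-flip p 0.5, the smallest possible). The H3K4me3 share of 76.1% was 2.02% with the H3K4me3 replicate 2 list and 80% for the 25 replicate 2 peaks, so leaving out a replicate gave 2.02% to 80%. It was 70.7% with only H3K4me3 regions over 1000 bp from a start site by their deposited distance. The intron 1 share of 36.4% was 43.2% over 500 bp, 29.6% over 5000 bp, 31.4% with protein-coding host transcripts and 32% in replicate 2. The median score of 10.9 was 18.1 in the higher-scoring 50% and 60.7 in replicate 2, whose score steps are 8.16 times as large, so that the 2 medians are not comparable. The share found in replicate 2 was 6.03% in the higher-scoring 50%. The share with a GENCODE start site was 27.2% over 500 bp (where the added peaks lie within 1000 bp of a start site by construction), 12.4% over 5000 bp, 21.6% in the higher-scoring 50%, 10.1% within 250 bp and 2.23% for protein-coding transcripts.

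The GC box share was 26.5% in 200 bp windows, 32.8% in the higher-scoring 50% and 26.9% at under 10 copies, and the CCAAT share 52.0%, 57.8% and 37.7%. The share at many copies was 35.6% for at least 2 copies, 19.8% for at least 100, 20.7% at 90% identity and 31.1% over 5000 bp; the copy alternatives were chosen after seeing the data. The remaining alternatives of these results kept the direction or stayed within the 95% interval, as did all but 6 of 40 for the other motifs. The cause of these shifts was not tested, apart from the fewer or different peaks each alternative uses. Read totals are unknown, so the part of depth in the few sites found again was not tested.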

Other observations

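A pair of peaks of this class in TAF4b replicate 2 stood above the rest of its 25, which had a median score of 60.7. The site in intron 1 of 4 of Filip1l scored 222.7, overlapped an H3K4me3 region in replicate 2 and none in replicate 1, and had no TAF4b replicate 1 peak. Its sequence had 4 genomic copies, 3 of them at 95% identity or more. The site in intron 10 of 14 of Taf4b itself scored 178.1 and lay in no H3K4me3 region. It overlapped a replicate 1 peak of score 19.4 that was annotated as exonic and is therefore not one of the 494. Of the 494 sites, 42 (8.50%) lay on chromosome 8 and 40 (8.10%) on chromosome 10. Of all TAF4b replicate 1 peaks, 5.30% and 5.33% lay there. Chromosomes 13 and 14 held 6.3% and 5.9% of the sites, against 4.5% and 3.9%. Lower shares were on chromosome 11 (14 sites, 2.83%), chromosome 19 (5, 1.01%), chromosome 15 (8, 1.62%) and the X chromosome (8, 1.62%). All TAF4b replicate 1 peaks had 6.73%, 3.35%, 3.12% and 2.61% on these. The chromosomes named were chosen after their values were seen, and no interval was computed. Of the 7861 peaks compared with, 5756 are promoter peaks, so a cause of these differences was not tested.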
